A study of Mus musculus with 4 samples.

Results

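The genes described here make fatty acids and build them into triglyceride. A list of 32 mouse genes was followed, and all 32 were named among the 18194 genes of the array. Each was represented by 1 probe set, the one with the highest mean log2 signal. The members fall into 4 enzymatic steps plus a set of regulators. There are 5 genes of acetyl-CoA and NADPH supply, 3 of chain synthesis, 10 of elongation and desaturation, 11 of glycerolipid assembly, and 3 regulators.

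Fat cells turn glucose carbon into fat by exporting citrate from mitochondria, splitting it into acetyl-CoA, and condensing malonyl-CoA units into palmitate with NADPH as the reductant. Palmitate is then lengthened and desaturated, and the acyl chains are placed on a glycerol backbone by acyltransferases, lipins and finally diacylglycerol acyltransferases. In differentiating fat cells the genes of this route are known to be controlled by SREBP1, ChREBP, liver X receptors and PPAR gamma.

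The 4 cultures were 3T3-L1 cells, a mouse fibroblast line that becomes adipocyte-like when given insulin, dexamethasone and isobutylmethylxanthine. All were in differentiation medium with 25 mM glucose and 10% serum, and RNA was taken 24 h after induction, which is early in the programme. One culture had received siRNA against aof2 (now Kdm1a, encoding the histone demethylase LSD1), 1 siRNA against rfk (riboflavin kinase, which makes flavin mononucleotide), and 1 the control siRNA siGL3, each 24 h before induction. A further culture had tranylcypromine, a drug that blocks monoamine oxidases and LSD1, in the induction medium, and its labels mention no siRNA, so drug and lack of transfection cannot be told apart. Each culture went onto 1 array. There were therefore no replicates, no test between conditions was possible, and every value below is a single measurement on the array named.

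Kdm1a had a signal of 681 with aof2 siRNA against 3494 in control cells, or 19.5% of control, and Rfk had 573 with rfk siRNA against 2122, or 27.0%. Over all 45101 probe sets the Pearson correlation of log2 signals between arrays, a description, was 0.932 to 0.938. Adipocyte markers were seen in part, since 5 of 8 measured passed the filter on signal. Adipoq, Cd36 and Lep, which mark mature fat cells, did not pass. The summed signals of the 8 markers were 6412 with aof2 siRNA, 6918 with rfk siRNA and 5872 with tranylcypromine, against 8996 in control. Lpl, a lipase and the brightest marker, carried most of these sums, with 3919, 5317 and 3808 in the treated arrays against 5272 in control. Fabp4, a fatty acid binding protein, was at 52.8%, 32.1% and 44.4% of control, and Pparg, the regulator of fat cell differentiation, at 92.0%, 58.7% and 73.6%, so that both were lowest with rfk siRNA. Retn, which encodes the hormone resistin, was at 80.8%, 76.5% and 46.6% of control. Cebpa, a further regulator, was above control, by log2 values of 0.56, 0.03 and 0.28. Of 9 measured preadipocyte and fibroblast markers 8 passed, with summed signals of 79509, 77723 and 76492 in the treated arrays and 75651 in control. S100a4, Col3a1 and Fn1 carried most of these sums. In each comparison 4 of the 8 were above control and 4 below. Col1a1 was at 68.4%, 49.7% and 50.7% of control, and Pdgfra at 137%, 119% and 115%. Of 5 markers each, 1 macrophage, 1 endothelial and 2 epithelial markers passed. The summed macrophage signal was 179 to 267 on the treated arrays against 199.5 in control, and the endothelial one 93 to 117 against 61.2. Kdr was the endothelial marker that passed, with 57.7, 69.3 and 70.5 in the treated arrays against 29.0 in control. Sums made mostly of markers below the filter count for little. The summed epithelial signal was 619 with aof2 siRNA, 387 with rfk siRNA and 748 with tranylcypromine, against 368 in control. Krt19 carried most of the aof2 siRNA and tranylcypromine differences, with 267, 101 and 444 in the treated arrays against 100 in control. Epcam had 285, 227 and 228 against 202, and Krt8, Krt18 and Cdh1 were below the filter. The part of these marker differences in the results below was not tested. Fewer cells of a type and less RNA per cell cannot be told apart in such samples.

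To keep dim probe sets from setting the picture, genes were compared where the mean log2 signal over the 4 arrays was at least that of the median probe set, which corresponds to a signal of 50.9. This kept 10788 genes, among them 27 members. The 5 members under it were Acacb, Elovl3, Elovl7, Mlxipl and Lpin3. A gene counted as higher or lower when its signal differed from control by at least 1.5-fold, which is 0.58 on the log2 scale. In 5228 genes with several probe sets above the filter, the log2 differences of those probe sets spanned a median of 0.31 with aof2 siRNA, 0.29 with rfk siRNA and 0.34 with tranylcypromine, so that single differences below about this size are within the disagreement between probes.

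Of the 27 members, 7 were past 1.5-fold on at least 1 array, namely Acss2, Fasn, Scd1, Elovl6, Thrsp, Gpd1 and Dgat2, where 20% of the compared genes were. The RefSeq promoter table (GRCm38.p6) held entries for 25 of the 32 members, and for Acss2, Fasn, Elovl6 and Thrsp among these 7. The 250 bases before the transcript start listed there are shown 5′ to 3′, because these are members past 1.5-fold for which the data could be set beside a promoter, a choice made after their values were seen. Capitals mark matches on either strand to CCAAT, the core of the box bound by NF-Y, or to GGGCGG, the GC box bound by Sp1. Acss2 is at chr2:155517793-155518042 on the plus strand, Fasn at chr11:120824548-120824797 on the minus strand, Elovl6 at chr3:129532136-129532385 on the plus strand, and Thrsp at chr7:97417551-97417800 on the minus strand.
Acss2: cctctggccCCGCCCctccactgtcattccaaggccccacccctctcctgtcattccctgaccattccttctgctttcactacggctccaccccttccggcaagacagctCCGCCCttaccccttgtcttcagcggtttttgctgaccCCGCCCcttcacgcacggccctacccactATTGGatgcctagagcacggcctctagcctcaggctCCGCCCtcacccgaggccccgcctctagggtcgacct
Fasn: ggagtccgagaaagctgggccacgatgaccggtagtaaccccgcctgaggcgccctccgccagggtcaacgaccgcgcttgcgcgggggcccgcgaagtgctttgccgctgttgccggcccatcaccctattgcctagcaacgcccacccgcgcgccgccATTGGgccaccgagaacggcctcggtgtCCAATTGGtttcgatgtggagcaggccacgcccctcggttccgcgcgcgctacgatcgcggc
Elovl6: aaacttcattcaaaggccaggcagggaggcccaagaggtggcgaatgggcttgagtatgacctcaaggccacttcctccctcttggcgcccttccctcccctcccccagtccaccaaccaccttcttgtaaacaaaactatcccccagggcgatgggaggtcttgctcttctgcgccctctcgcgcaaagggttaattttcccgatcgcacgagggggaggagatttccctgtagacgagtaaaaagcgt
Thrsp: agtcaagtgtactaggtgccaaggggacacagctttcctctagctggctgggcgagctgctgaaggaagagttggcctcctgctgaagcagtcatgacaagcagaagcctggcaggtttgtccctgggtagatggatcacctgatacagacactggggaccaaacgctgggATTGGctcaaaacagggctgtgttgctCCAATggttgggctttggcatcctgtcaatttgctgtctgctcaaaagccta
The CCAAT letters were found 3 times in Fasn, starting at -90, -62 and -59 from the transcript start, with the last 2 overlapping on opposite strands. They were found 2 times in Thrsp, at -79 and -52, and 1 time in Acss2, at -73. Acss2 also held the GC box 4 times, at -241, -140, -102 and -37, and Elovl6 held neither motif. The letters CACGTG, the E-box, were not in these 4 windows. Over the 25 members with an entry, 16 had CCAAT, 15 GGGCGG and 6 CACGTG in at least 1 of their promoters. Of the 32851 promoter windows in the table, 33.8% held CCAAT, 32.7% GGGCGG and 6.02% CACGTG, and some members had several windows, so the shares are not directly comparable. Genes with CCAAT stood on both sides of control, as Fasn and Thrsp show, and a match of letters is no evidence of binding.

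With tranylcypromine the members stood above control more often than the compared genes did, and the steps differed. All 8 genes of elongation and desaturation above the filter were above control, and 4 of 10 of glycerolipid assembly. Among the 8, Elovl1 was above by only 0.03, with another probe set at -0.40, on an array whose median signal was 55.6 against 53.3 in control. Its direction was thus not settled, and those of Scd2, Elovl5 and Fads3 were also within the disagreement between probes. Of the 27 members 19 were above control and 8 below, whereas 48% of the 10788 compared genes were above control. The median log2 difference of the members was 0.22, beside -0.02 over all compared genes. Past 1.5-fold were 3 members on the high side, Acss2, Fasn and Scd1, where the background was 7.48% of compared genes, and 2 on the low side, Dgat2 and Thrsp, where it was 4.77%. At 2-fold there were 0 in either direction, where the backgrounds were 2.23% on the high side and 0.945% on the low side. The members' differences were thus small, and their counts past 1.5-fold were near this background. Among genes above a signal of 414, the background was 4% on the high side and 2.31% on the low side. Of the 27 members 23 were above that signal, among them Acss2, Fasn and Scd1 but not Dgat2 or Thrsp. Beside those brighter genes the high-side count was thus above the background. With the arrays centred on their medians, 0 members were past 1.5-fold on the high side and 3 on the low side, because Acss2, Fasn and Scd1 had been only just past it. When the 3 other arrays, averaged, took the place of control, 0 members were past it in either direction and 22 of 27 were above.

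With rfk siRNA 6 of 8 elongation and desaturation genes were above control and 2 of 10 glycerolipid assembly genes. Of the 27 members, 12 were above control, where 48.5% of compared genes were, and 15 below, with a median of -0.02 beside -0.01 over all compared genes. Past 1.5-fold on the high side were Elovl6 and Gpd1, where the background was 3.92%, and on the low side Dgat2, where it was 3.8%. With aof2 siRNA 15 members were above control, where 49.3% of compared genes were, and 12 below, with a median of 0.02 beside -0.00412. With the arrays centred on their medians, 9 were above and 18 below, with a median of -0.06 beside -0.08 over all compared genes. Without centring, 0 members were past 1.5-fold on the high side with aof2 siRNA, where the background was 6.26%. On the low side 2 were, Dgat2 and Thrsp, where it was 2.88%. The Thrsp signals with aof2 siRNA and tranylcypromine lay close to the filter limit. The 3 comparisons share the control array, so a member whose control signal was off would be shifted in all of them.

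**Figure D1:**
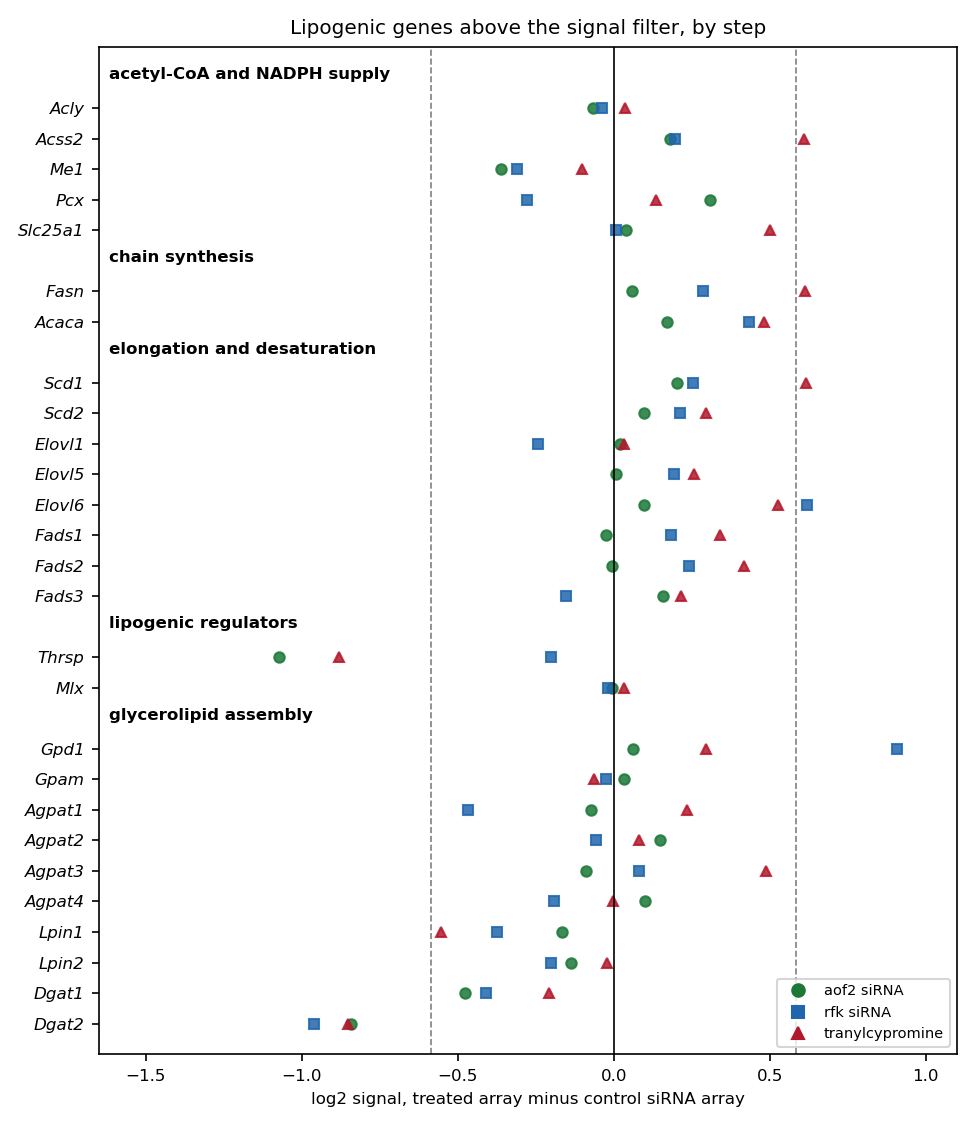
Log2 signal of each member above the filter, treated array minus control siRNA array, grouped by step, with 1 point per treated array. Dashed lines mark 1.5-fold. With tranylcypromine all 8 genes of elongation and desaturation lie to the right of 0, Elovl1 by only 0.03, while Dgat2 lies between -0.96 and -0.84 on the 3 treated arrays.

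The supply of acetyl-CoA differed by gene. Acss2, the cytosolic enzyme that makes acetyl-CoA from acetate, had signals of 877 with aof2 siRNA, 887 with rfk siRNA and 1181 with tranylcypromine, against 774 in control. The tranylcypromine array stood apart from the other arrays, 1.52-fold above control (log2 0.61), and a further probe set gave 0.94. That further probe set put the siRNA arrays at 0.42 and 0.48, above the 0.18 and 0.20 of the chosen one. Slc25a1, the mitochondrial citrate carrier, likewise had its highest signal with tranylcypromine, with 2067, 2021 and 2844 in the aof2 siRNA, rfk siRNA and tranylcypromine arrays against 2010 in control. The siRNA arrays were at 0.04 and 0.01 from control on the log2 scale, and the tranylcypromine array was at 0.50.

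Acly, which splits exported citrate into acetyl-CoA, was flat by comparison. Its signals were 8302, 8475 and 8919.9 in the aof2 siRNA, rfk siRNA and tranylcypromine arrays, against 8698 in control, and its 3 probe sets above the filter lay between -0.43 and 0.21 over all comparisons. Me1, the cytosolic malic enzyme that yields NADPH, had 1283, 1328 and 1536 in those arrays against 1648 in control. All 3 treated arrays were below control, by log2 values of -0.36, -0.31 and -0.10, and its other probe set gave -0.56, -0.56 and -0.29. Pcx, pyruvate carboxylase, which replenishes the oxaloacetate that leaves as citrate, had 3540.4 with aof2 siRNA, 2361 with rfk siRNA and 3146 with tranylcypromine, against 2862 in control. It was the supply gene whose siRNA arrays lay furthest apart, with rfk siRNA below aof2 siRNA by a log2 difference of -0.58. The 3′ control probe set for Pcx gave nearly the same, 0.27 and -0.32 from control with aof2 and rfk siRNA, while the dimmer probe sets for its other parts lay between -0.88 and 0.21 over the siRNA arrays.

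**Figure D2:**
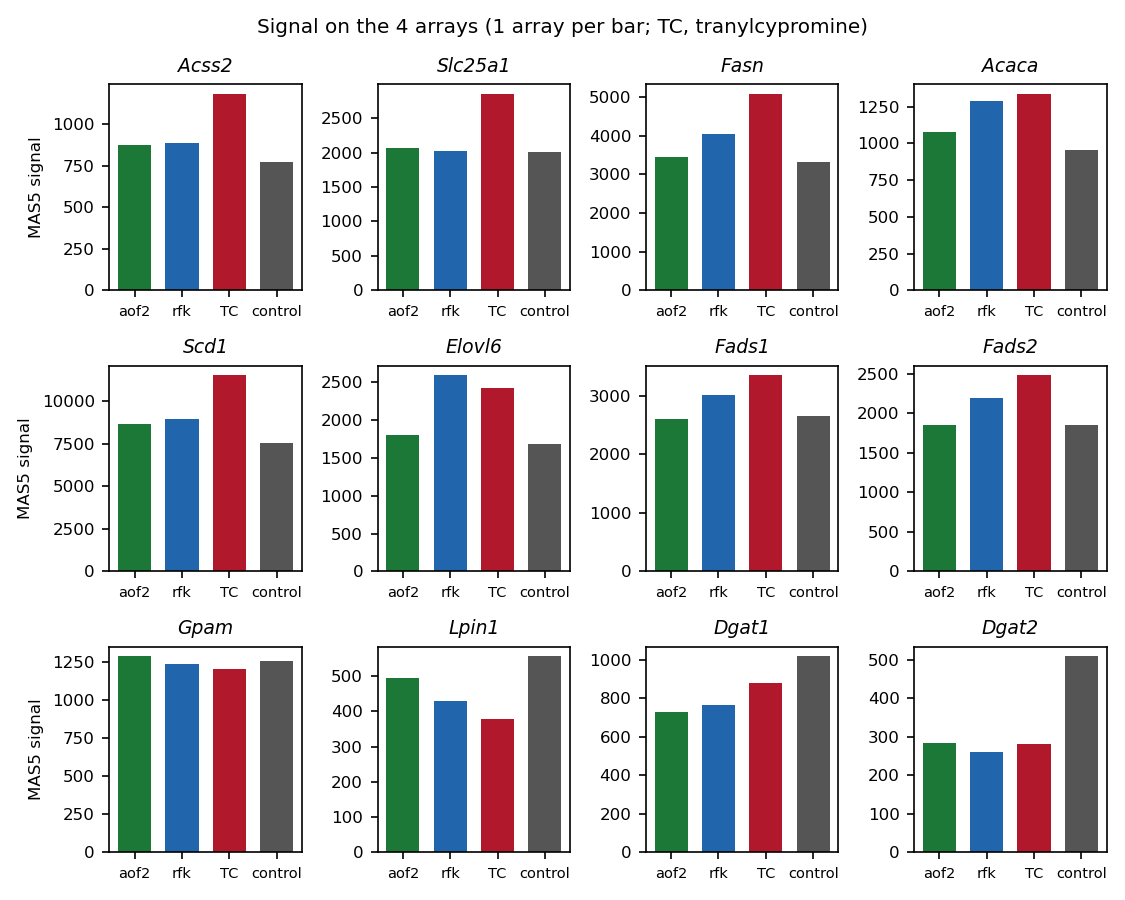
MAS5 signal of 12 members on the aof2 siRNA, rfk siRNA, tranylcypromine (TC) and control siRNA arrays, 1 array per bar, on linear axes that start at 0. Bars are to be compared within a panel only. Fasn reached 5064 with tranylcypromine against 3312 in control, and Dgat2 stood between 261 and 283 on the treated arrays against 508 in control.

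In chain synthesis the measured genes were above control on every treated array. Fasn, the fatty acid synthase that assembles palmitate, had signals of 3449.6 with aof2 siRNA, 4041 with rfk siRNA and 5064 with tranylcypromine, against 3312 in control. The aof2 siRNA array was near control (log2 0.06), rfk siRNA was at 0.29 and tranylcypromine at 0.61, or 1.53-fold. Acaca, acetyl-CoA carboxylase 1, which makes the malonyl-CoA used by Fasn, had 1074, 1291 and 1334 against 955, again in the order aof2 siRNA, rfk siRNA, tranylcypromine and control. Its log2 differences were 0.17, 0.43 and 0.48, so that rfk siRNA and tranylcypromine lay close together. Each of these genes rested on 1 probe set above the filter, and in bright genes, those above a signal of 414, the 5th and 95th percentiles of the log2 differences were -0.39 and 0.39 with rfk siRNA and -0.46 and 0.53 with tranylcypromine. Fasn with tranylcypromine and Acaca with rfk siRNA lay just outside these ranges.

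Acacb, the carboxylase isoform tied to control of fatty acid oxidation, was below the filter. Its signals of 33.7 with aof2 siRNA, 85.8 with rfk siRNA and 40.4 with tranylcypromine, against 11.4 in control, give differences of unreliable size. The control array was the lowest in both of its probe sets, and in the other one, where signals did not exceed 10.2, the control signal was 3.56.

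With rfk siRNA and tranylcypromine the genes of elongation and desaturation were mostly above control. With tranylcypromine all of those above the filter were, though Elovl1 by only 0.03. Of these 8 genes, 6 were above control with aof2 siRNA, 6 with rfk siRNA and 8 with tranylcypromine, where the shares over all compared genes were 49.3%, 48.5% and 48%, with medians of 0.06, 0.20 and 0.32. The aof2 siRNA count held Elovl5 at 0.01 and Elovl1 at 0.02, which became -0.07 and -0.06 with the arrays centred on their medians. No direction is therefore settled for this step with aof2 siRNA. Scd1, the stearoyl-CoA desaturase that introduces the first double bond, had signals of 8663, 8965 and 11529 in the aof2 siRNA, rfk siRNA and tranylcypromine arrays, against 7525 in control. With tranylcypromine it was 1.53-fold above control, and both of its probe sets gave 0.62, whereas with rfk siRNA they gave 0.25 and 0.03. Scd2, its close relative, had 22799, 24707 and 26195 against 21338, with log2 differences of 0.10, 0.21 and 0.30. Its dimmer probe sets placed rfk siRNA higher, at 0.54 and 0.62, than tranylcypromine, at 0.38 and 0.10, so the order of these arrays was not settled for Scd2.

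Elovl6, which lengthens palmitate to stearate, was the gene of this step, among those above the filter, with the widest difference under rfk siRNA. Its signals were 1803 with aof2 siRNA, 2588 with rfk siRNA and 2424 with tranylcypromine, against 1685 in control. The rfk siRNA and tranylcypromine arrays were both well above the aof2 siRNA and control arrays, at log2 differences of 0.62 and 0.53 from control, and a further probe set gave 0.49 and 0.40. With aof2 siRNA the same probe sets gave 0.10 and -0.24. Averaged over all its probe sets, 1 of them dim, the rfk siRNA difference was 0.32, below 1.5-fold.

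By their representing probe sets, the desaturases of the polyunsaturated branch were highest with tranylcypromine, while aof2 siRNA and control were nearly level. Fads1, the delta-5 desaturase, had 2596 with aof2 siRNA, 3004 with rfk siRNA and 3346 with tranylcypromine, against 2645 in control. Fads2, the delta-6 desaturase, had 1848, 2192 and 2479 in those arrays against 1857. Both were level with control under aof2 siRNA (-0.03 and -0.01), at 0.18 and 0.24 under rfk siRNA, and at 0.34 and 0.42 under tranylcypromine. With tranylcypromine the 2 probe sets of Fads1 gave 0.33 and 0.34, and the 3 of Fads2 lay between 0.40 and 0.42. The dimmest probe set of Fads2 was highest with rfk siRNA, at 0.56, and gave 0.19 with aof2 siRNA. The dimmer probe set of Fads1 gave 0.02 with aof2 siRNA. Elovl5, which elongates polyunsaturated chains, had log2 differences of 0.01, 0.19 and 0.26, and its other probe set gave -0.02, 0.12 and 0.24.

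By their representing probe sets, Elovl1 and Fads3 had their lowest signal with rfk siRNA. Elovl1, an elongase of very long saturated chains, had signals of 3509, 2925 and 3538 in the aof2 siRNA, rfk siRNA and tranylcypromine arrays, against 3461 in control. Its rfk siRNA array was the low one, at -0.24, with its other probe sets at -0.38 to -0.29. The dimmest of these gave -0.58 with aof2 siRNA and -0.40 with tranylcypromine, and so placed aof2 siRNA lowest. Fads3, a desaturase that acts on sphingoid bases, had 2095, 1688 and 2181 against 1877, so its rfk siRNA array was likewise the lowest, at -0.15. Elovl3 and Elovl7 were below the filter, with signals of 29.02 or less on all 4 arrays, and give no usable difference.

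**Figure D3:**
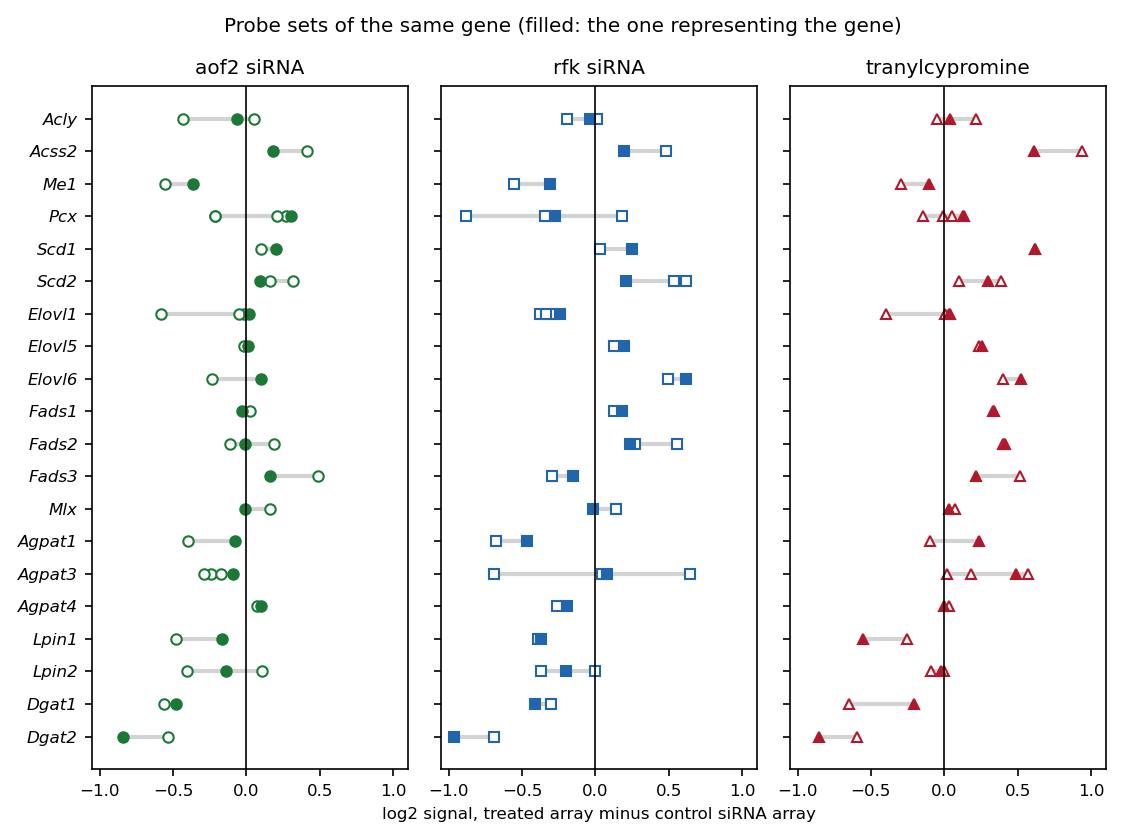
Log2 signal, treated array minus control siRNA array, for every probe set above the filter of the 20 members that had several, with the representing probe set filled. The probe sets of Scd1, Fads1 and Fads2 nearly coincide with tranylcypromine, both of Dgat2 lie left of 0 in each panel, and those of Agpat3 span from -0.69 to 0.65 with rfk siRNA.

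Glycerolipid assembly genes were mostly below control with rfk siRNA, and with tranylcypromine they lay near the compared genes as a whole. Of the 10 glycerolipid assembly genes above the filter, 4 were above control with aof2 siRNA, 2 with rfk siRNA and 4 with tranylcypromine, beside the same 49.3%, 48.5% and 48% of compared genes. Their medians were -0.08, -0.20 and -0.01, beside -0.00412, -0.01 and -0.02 over the compared genes. Dgat2, the diacylglycerol acyltransferase that esterifies newly made fatty acids, had signals of 283 with aof2 siRNA, 261 with rfk siRNA and 281 with tranylcypromine, against 508 in control. The treated arrays were almost equal and the control array stood alone, with treated cells at 55.8%, 51.4% and 55.4% of control. The log2 differences were -0.84, -0.96 and -0.85, and a second probe set gave -0.53, -0.69 and -0.59. The difference rests on 1 control array. When each array was compared with the 3 others averaged, the values were -0.24, -0.40 and -0.25. That reference includes the other treated arrays, which were also low, so smaller values had to follow and say nothing about the control signal.

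Dgat1, the other enzyme of this reaction, had 731, 766 and 879.9 in the aof2 siRNA, rfk siRNA and tranylcypromine arrays, against 1017 in control. All treated arrays were again below control, by log2 values of -0.48, -0.41 and -0.21, and its second probe set gave -0.56, -0.30 and -0.65. Lpin1, a phosphatidate phosphatase that makes diacylglycerol, had 495 with aof2 siRNA, 429 with rfk siRNA and 378 with tranylcypromine, against 556 in control. Its log2 differences were -0.17, -0.37 and -0.55 and its other probe set gave -0.48, -0.39 and -0.25, so that both placed every treated array below control but in opposite order. Lpin2 differed by -0.14, -0.20 and -0.02. Lpin3 was below the filter, at 58.3, 2.36 and 5.76 in the treated arrays against 39.1 in control.

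Among the acyltransferases that add the first and second chains, Gpam, Agpat2 and Agpat4 differed little, while Agpat1 was lower with rfk siRNA and Agpat3 higher with tranylcypromine, both short of 1.5-fold. Gpam, the mitochondrial enzyme that adds the first acyl chain to glycerol 3-phosphate, had signals of 1285, 1235 and 1203 in the aof2 siRNA, rfk siRNA and tranylcypromine arrays, against 1256 in control, with log2 differences of 0.03, -0.02 and -0.06. The AGPAT enzymes add the second chain. Agpat2, the main form in fat tissue, differed by 0.15, -0.06 and 0.08, and Agpat4 by 0.10, -0.19 and -0.00298. Agpat1 had 371, 283 and 460.04 in the treated arrays against 391 in control. Its rfk siRNA array was the low one, at -0.47 with -0.68 from a second probe set, while for tranylcypromine the probe sets gave 0.23 and -0.09 and settled no direction. Agpat3 had 772, 867 and 1150.03 against 820.1, with tranylcypromine at 0.49, but its 4 probe sets spanned 0.02 to 0.57 there.

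Gpd1, which makes glycerol 3-phosphate, was higher with rfk siRNA. Its signals were 43.4, 77.9 and 51.04 in the aof2 siRNA, rfk siRNA and tranylcypromine arrays, against 41.5 in control. The difference of 0.91 came from signals close to the filter, which Gpd1 passed through its rfk siRNA array, with a geometric mean of 51.7 against the limit of 50.9. It therefore counts for little, and its other 3 probe sets were dim.

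Among the regulators, Mlx, the partner of ChREBP, was level, with 751, 745 and 772 in the aof2 siRNA, rfk siRNA and tranylcypromine arrays against 755 in control. Thrsp, the nuclear protein Spot 14 that marks lipogenic tissue, had 46.5 with aof2 siRNA, 85 with rfk siRNA and 53.1 with tranylcypromine, against 97.8 in control. The aof2 siRNA and tranylcypromine arrays were low, at log2 differences of -1.07 and -0.88. Thrsp passed the filter mainly through its control and rfk siRNA arrays, with a geometric mean of 67.3 against the limit of 50.9. Its aof2 siRNA signal was under that limit, so these low values count for little. The rfk siRNA array was at -0.20, within the disagreement between probes, and at 0.45 against the 3 other arrays averaged. A probe set below the filter placed rfk siRNA lowest, at 10.3 against 59.8 in control, so the level under rfk siRNA was not settled. Mlxipl, which encodes ChREBP, was below the filter, with 5.79, 28.7 and 10.8 in the treated arrays against 25.2 in control.

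Across the 4 arrays, tranylcypromine held the highest signal for 15 of the 27 members (55.6%), where it did so for 27.7% of all compared genes, and the lowest for 2 (7.41%, beside 28.1%). The 2 were Gpam and Lpin1. The control array held the lowest signal for 9 members (33.3%, beside 22.9% of compared genes) and the highest for 6 (22.2%, beside 25.2%), and it was highest for Me1, Thrsp, Lpin1, Lpin2, Dgat1 and Dgat2. Set directly against aof2 siRNA, tranylcypromine was higher by log2 differences of 0.55 for Fasn, 0.43 for Acss2, 0.46 for Slc25a1, 0.43 for Elovl6, 0.42 for Fads2 and 0.41 for Scd1, and stood at -0.01 for Dgat2. Against rfk siRNA it was higher by 0.33 for Fasn, 0.41 for Acss2, 0.49 for Slc25a1 and 0.36 for Scd1, but by 0.05 for Acaca and -0.09 for Elovl6.

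Of the other genes of the route, 32 of 35 listed were measured and 25 passed the filter. Of these, 0 were past 1.5-fold with either siRNA, and with tranylcypromine 2 were lower, Hacd1 at -0.69 and Elovl4 at -0.68, and 0 higher. Over the compared genes the shares higher and lower were 6.26% and 2.88% with aof2 siRNA, 3.92% and 3.8% with rfk siRNA, and 7.48% and 4.77% with tranylcypromine, so 2 of 25 lower is near the background. Their medians were -0.05, -0.06 and -0.01 with aof2 siRNA, rfk siRNA and tranylcypromine. Tecr, the enoyl reductase that closes the elongation cycle, had 6626 with tranylcypromine against 4563 in control (0.54, with 0.54 from its other probe set), and Taldo1, transaldolase of the pentose phosphate pathway, 4966 against 3389 (0.55). Hacd1, a dehydratase of the same elongation cycle, had 2051 with tranylcypromine against 3314 in control. With aof2 siRNA the highest were Idh2 at 0.44 and Pnpla3 at 0.37 and the lowest Hacd1 at -0.48 and Elovl4 at -0.40. With rfk siRNA they were Elovl4 at 0.57 and Acsl3 at 0.21, and Agpat5 at -0.37 and H6pd at -0.30. Another probe set gave 0.16 for Elovl4 with aof2 siRNA and 0.06 for Agpat5 with rfk siRNA, so these directions were not settled.

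Genes that control the route were mostly within 1.5-fold, as were the compared genes. Of 17 listed 16 were measured and 15 passed the filter. Of these, 1 was higher with aof2 siRNA, 2 were higher and 1 lower with rfk siRNA, and 1 was higher with tranylcypromine. The shares of compared genes higher and lower were 6.26% and 2.88%, 3.92% and 3.8%, and 7.48% and 4.77% in that order. Mid1ip1, a partner of acetyl-CoA carboxylase that promotes its polymerisation, stood out, with 1432 with aof2 siRNA, 1283 with rfk siRNA and 1636 with tranylcypromine, against 809 in control. All treated arrays were above control, by 0.82, 0.67 and 1.02, on its single probe set, and again the control array stood alone. Srebf1, which encodes SREBP1, had 688, 693 and 669 in those arrays against 767, slightly below control by -0.16, -0.15 and -0.20. Its signal was below control with rfk siRNA and tranylcypromine, where those of Fasn, Scd1 and Fads2 were above it and that of Me1 was below it. The Srebf1 differences, on 1 probe set, were within the disagreement between probes. With rfk siRNA those of Fasn, Scd1 and Fads2 were within it or at its edge, so no opposite movement is settled.

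Insig1, which holds the SREBP precursor in the endoplasmic reticulum, was lower with rfk siRNA, with 1310.05 against 2106 in control (-0.69). Prkaa1, a catalytic subunit of the AMP-activated kinase that phosphorylates acetyl-CoA carboxylase, had 1057 with rfk siRNA against 549 in control (0.95). Nr1h3, which encodes liver X receptor alpha, differed by 0.53 with aof2 siRNA, -0.49 with rfk siRNA and 0.47 with tranylcypromine, with signals of 149, 73.2 and 142 against 103 in control. The remaining extremes were Usf2 at -0.32 and Scap at -0.26 with aof2 siRNA, and Usf2 at -0.42 and Mbtps1 at -0.37 with tranylcypromine, where another probe set of Mbtps1 gave 1.02. The other probe set of Usf2 gave -0.04 with aof2 siRNA and 0.10 with tranylcypromine.

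**Figure D4:**
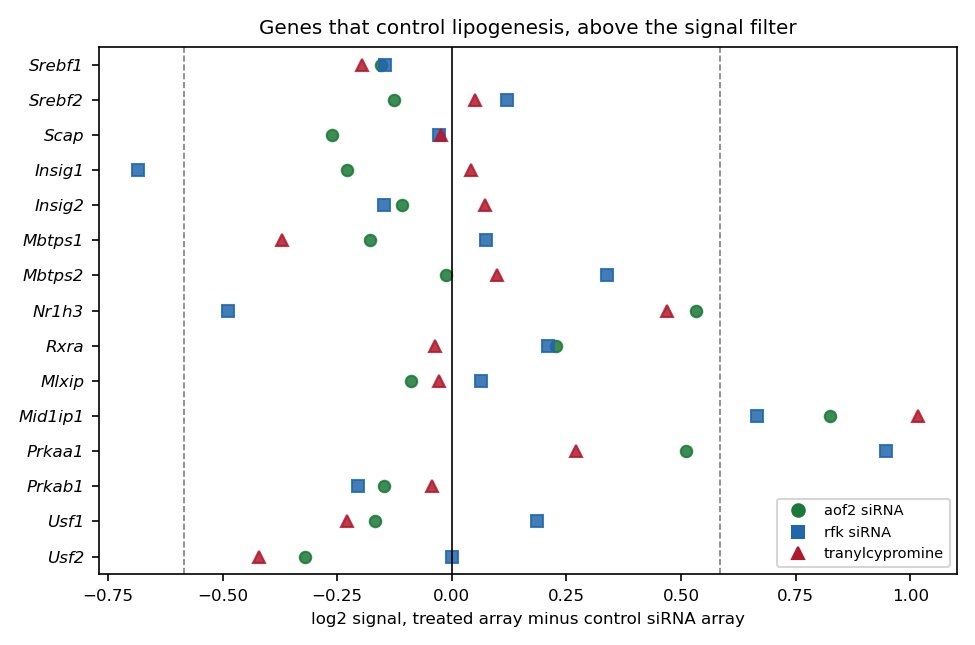
Log2 signal, treated array minus control siRNA array, of 15 genes that control lipogenesis and passed the filter, 1 point per treated array, with dashed lines at 1.5-fold. Mid1ip1 lies right of the line on all 3 treated arrays, from 0.67 to 1.02, Insig1 and Prkaa1 are past it with rfk siRNA, and Srebf1 lies between -0.20 and -0.15.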

How the data were processed

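RNA from 4 cultures was measured on 1 Affymetrix 3′ expression array each. The deposited values are MAS5 signals, a linear intensity per probe set. Per the submitters' processing notes the software was MAS5, with version and scaling target not given in the sources used here. Detection calls were not used. After trimming 2% of probe sets at either end, the mean of the deposited intensity was 500.003 on all arrays, so the arrays had been scaled to each other, which hides any difference in total RNA per cell. Groups were taken from the labels.

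Values were log2-transformed without an offset. Probe sets were named through the platform annotation (34958 probe sets with 1 symbol, 932 with several, 9211 unnamed here), updated through gene identifiers, which changed 0 symbols. Each gene was represented by its brightest probe set over the 4 arrays. With 1 array per group no test was made, and the number of arrays limits the precision. Named genes were all members, the targeted genes, and the 2 highest and 2 lowest per comparison of each further list, with Srebf1, Nr1h3 and Mid1ip1. The adipocyte markers above the filter, and the markers of other cell types that are named, were added after their values were seen. The members and lists were chosen with earlier results of these data known. Alternatives were centring, quantile normalization, an offset of 16, other filters, other handling of probe sets, another reference and a 2-fold threshold. A requirement that probe sets share a direction was added after seeing the data, as was the choice of promoter motifs. Steps were tested on simulated data. Python 3.11.15, NumPy 2.4.6, pandas 2.3.3 and matplotlib 3.10.9 were used.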

Additional observations from a re-analysis of the deposited data

How the results depend on the processing

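The number of members past 1.5-fold in either direction was small and moved with most settings, as did the share of all genes past the threshold. With aof2 siRNA it was 2, and it became 4 with no filter on signal, 0 with the filter at the 75th percentile, 1 with the mean of all probe sets, 1 against the 3 other arrays averaged, and 1 at 2-fold. With no filter, where 32 members were compared, 17.8% of all genes were higher and 12.8% lower. In the order of the other settings the shares were 2.98% and 1.22%, 7.28% and 4.1%, 3.07% and 1.66%, and 1.61% and 0.538%. With rfk siRNA it was 3, and the same settings gave 6, 1, 1, 1 and 0. The shares of all genes higher and lower were then 15.9% and 14.5%, 1.64% and 1.54%, 5.04% and 5.32%, 2.46% and 4.16%, and 0.927% and 0.806%. With tranylcypromine it was 5, and it became 3 with centred arrays, 8 with no filter, 3 with the stricter filter, 0 against the 3 others averaged and 0 at 2-fold. With the stricter filter 4% of all genes were higher and 2.31% lower, and at 2-fold 2.23% and 0.945%. Counting a member only where its probe sets above the filter shared a direction, an alternative added after seeing the data, left the counts at 2, 3 and 5. The members' median changed sign with aof2 siRNA, where 0.02 became -0.0568 with centred arrays, -0.00254 with the mean of all probe sets and -0.0886 against the 3 other arrays averaged, so it has no settled direction. The medians kept their sign under the 8 other settings tried for rfk siRNA (-0.06 to -0.01) and for tranylcypromine (0.07 to 0.22). Among 576 values of single members under other settings, 41 differed from the reported value by more than the typical gap between probe sets of a gene, and no member past 1.5-fold turned its direction. Dim signals have no detection calls here, which limits Gpd1, Thrsp and the 5 members below the filter. No paired analysis was possible because each group has 1 array.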
